A study of Homo sapiens with 18 samples.

Results

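The genes described here are the synaptotagmins, the SNARE proteins and the proteins that regulate them in exocytosis. They were taken by symbol from the deposited gene table: protein-coding synaptotagmins (17 genes), syntaxins (16), VAMPs (7), syntaxin-binding proteins (6), complexins (4), UNC13 proteins (4) and SNAP proteins (4). This gave 58 members among 57808 features, of which 19028 were protein-coding. The rule used symbols and no measured value, although earlier results of these data were known when it was set. Gene counts came from MEL1, an embryonic stem cell line of human origin in which GFP reports activity of the insulin gene. Stem-cell-derived beta-like cells (sBC), sorted for GFP, gave RNA-seq of GFP+ sBC and GFP- sBC, and footprints from tagged ribosomes of GFP+ sBC. Definitive endoderm (DE) and undifferentiated pluripotent cells (hPSC) gave RNA-seq, footprints of all ribosomes (Ribo) and footprints of tagged ribosomes (IP-Ribo). Each of the 9 groups held 2 libraries.

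In all assays, DE and hPSC carried an RPL22-FLAG genotype, which tags a ribosomal protein for pull-down. GFP+ sBC for IP-Ribo carried RPL22-FLAG from a lentivirus, and for the sBC RNA libraries the labels name the GFP sort alone. Stage and genotype therefore cannot be told apart when sBC are set against DE or hPSC. Nothing in the labels tells whether replicates were grown as separate cultures; p-values therefore measure only the spread between these libraries, which may be technical. In bulk libraries, fewer cells of a type and less RNA per cell cannot be told apart.

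Hormone release by islet cells, like transmitter release by neurons, ends with fusion of a vesicle with the plasma membrane. A vesicle SNARE of the VAMP family zips up with a syntaxin and a SNAP protein of the target membrane, and a Sec1/Munc18 (SM) protein guides that assembly. UNC13 proteins prime vesicles, complexins clamp or promote the partly zipped complex, and synaptotagmins couple fusion to calcium, although several of them bind little or none. Other SNAREs serve traffic through the Golgi, the endoplasmic reticulum and endosomes in all cells.

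Depth ran from 27359178 to 92533993 counts per RNA library, from 22289623 to 30167927 per Ribo library and from 6606248 to 23110461 per IP-Ribo library. Protein-coding nuclear genes took 40.5% of the counts in DE Ribo replicate 1 and 54.6% and 62.8% in the GFP+ sBC IP-Ribo libraries, against 76% to 90.4% in all others. The GFP- sBC RNA libraries were unlike each other, with 0.42% and 4.35% of counts from mitochondrially encoded genes. Levels are given as CPM, normalised counts per library size scaled by TMM within an assay. They are not divided by transcript length, so a level is compared for 1 gene between libraries and never between genes. The stage labels fitted their markers: POU5F1 stood at 1840 and 1870 CPM in hPSC RNA, SOX17 at 469 and 471 CPM in DE RNA, and INS at 4400 and 4830 CPM in GFP+ sBC RNA. GFP- sBC RNA also held INS, at 1700 and 981 CPM. The summed level of 4 alpha cell markers, GCG, IRX2 and TTR among them, was 37100 and 24400 CPM in GFP+ sBC RNA. In the same libraries 6 beta cell markers summed to 5480 and 5770 CPM. These sums are over different genes, so their sizes do not tell which cell type was more frequent.

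**Figure D1:**
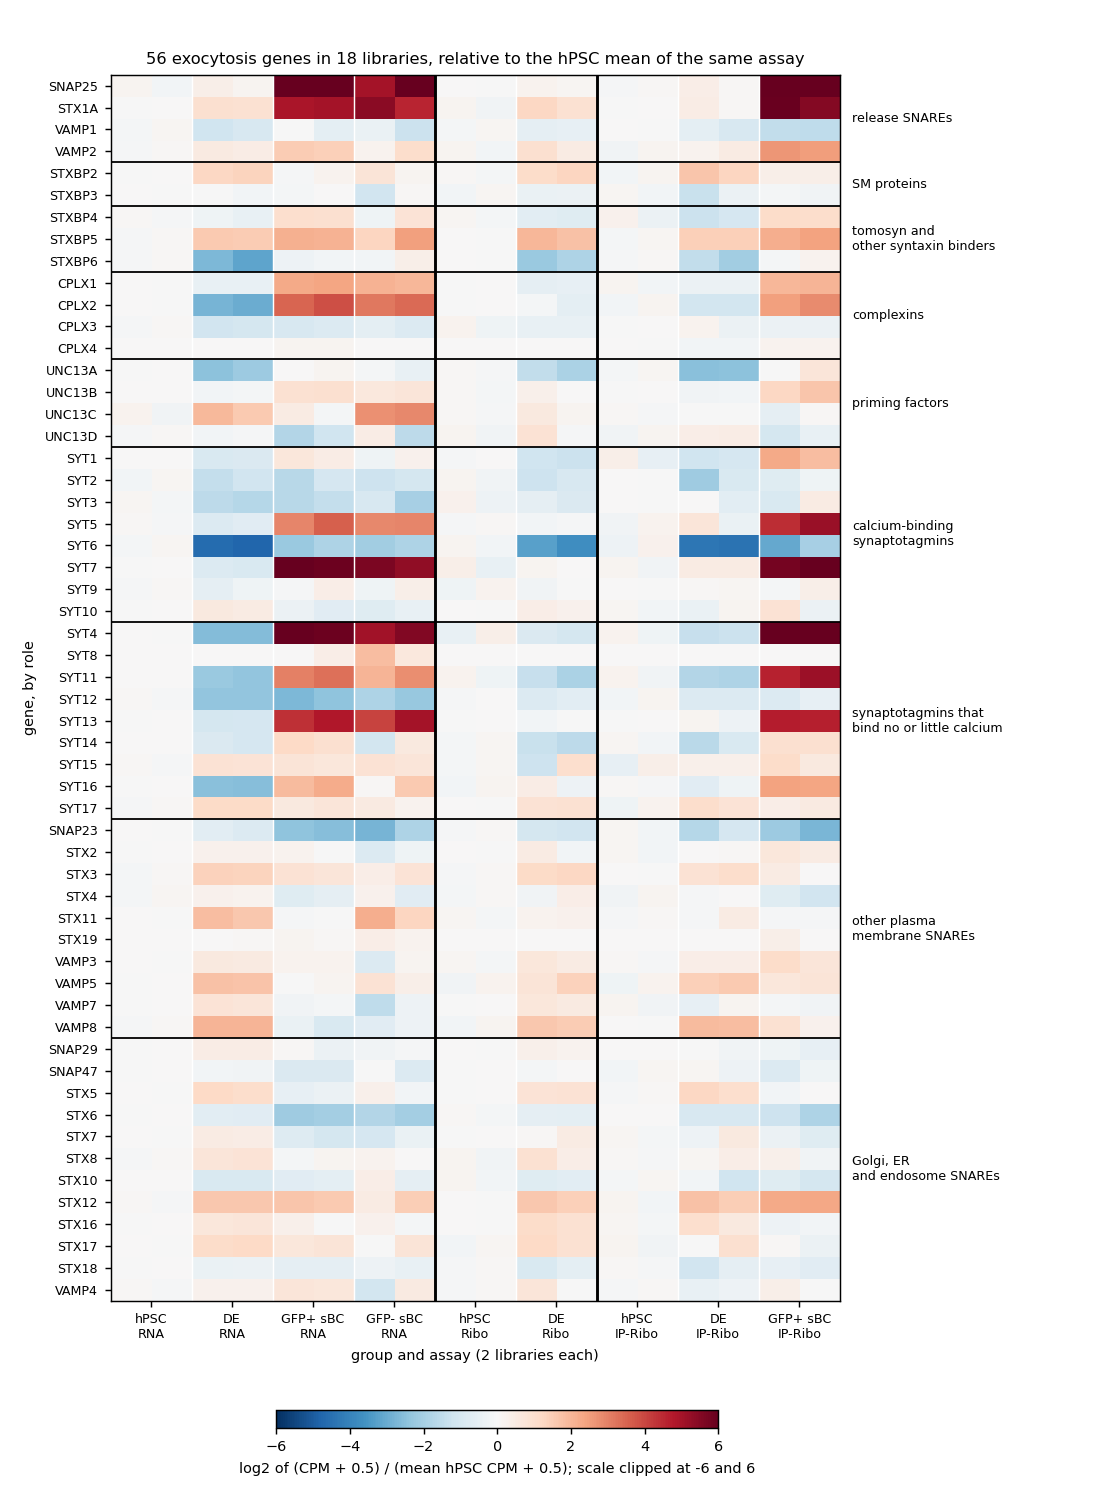
Each row is 1 of 56 of the genes, grouped by role, and each column is 1 of the 18 libraries. Colour gives log2 of (CPM + 0.5) over (mean hPSC CPM of the same assay + 0.5), clipped at -6 and 6; SNAP25, STX1A, SYT4, SYT7 and SYT13 are raised in every sBC library, and SYT6, SYT11 and UNC13A are lowered in every DE library.

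In RNA, 21 of the 58 genes had their highest group mean in GFP+ sBC, 7 in GFP- sBC, 17 in DE and 13 in hPSC. In IP-Ribo, where GFP- sBC were not measured, the highest mean lay in GFP+ sBC for 28 genes, in DE for 12 and in hPSC for 17, and SYT8 had 0 counts in all 6 libraries. The map of members by library shows blocks within roles: several synaptotagmins and complexins and the release SNAREs SNAP25 and STX1A were high in sBC, whereas VAMP8, VAMP5 and STX3 were high in DE.

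A RefSeq table of GRCh38.p14 gave sequence around the start of 46 of the 58 genes, with 69 start sites. Of the members that rose in GFP+ sBC IP-Ribo, the 4 with the largest fold change and an entry are shown, together with SNAP23, the widely expressed relative of SNAP25 that fell. Each line is the 250 bases before a listed start, 5′ to 3′ on the gene's strand. Capitals mark the GC box GGGCGG, bound by Sp-family factors, and the X-box core GTTGCC, bound by RFX factors, on either strand. Searches for the cyclic-AMP response element TGACGTCA and the TATA motif TATAAA, also on both strands, matched none of these windows.
SYT4 (chr18:43277491-43277740, minus strand): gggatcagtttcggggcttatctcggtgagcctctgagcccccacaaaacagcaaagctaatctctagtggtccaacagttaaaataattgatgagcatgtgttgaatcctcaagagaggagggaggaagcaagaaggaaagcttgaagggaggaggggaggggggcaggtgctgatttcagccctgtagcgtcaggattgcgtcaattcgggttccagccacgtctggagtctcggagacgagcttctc
SYT5, first listed start (chr19:55179349-55179598, minus strand): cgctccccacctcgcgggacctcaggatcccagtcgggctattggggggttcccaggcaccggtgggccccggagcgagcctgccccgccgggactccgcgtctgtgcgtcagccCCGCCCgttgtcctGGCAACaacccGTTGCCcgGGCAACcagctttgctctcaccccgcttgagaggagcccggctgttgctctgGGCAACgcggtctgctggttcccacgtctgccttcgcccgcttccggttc
SYT5, second listed start (chr19:55180290-55180539, minus strand): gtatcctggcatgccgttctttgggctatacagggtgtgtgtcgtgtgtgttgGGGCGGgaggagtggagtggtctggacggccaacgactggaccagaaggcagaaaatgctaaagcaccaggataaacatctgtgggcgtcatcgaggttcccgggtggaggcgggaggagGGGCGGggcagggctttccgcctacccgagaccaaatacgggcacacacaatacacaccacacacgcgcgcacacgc
STX1A (chr7:73719670-73719919, minus strand): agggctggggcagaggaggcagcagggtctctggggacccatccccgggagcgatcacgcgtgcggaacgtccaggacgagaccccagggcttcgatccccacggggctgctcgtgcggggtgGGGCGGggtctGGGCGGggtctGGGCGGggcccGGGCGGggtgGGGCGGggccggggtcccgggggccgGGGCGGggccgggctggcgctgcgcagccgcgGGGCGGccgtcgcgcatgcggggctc
SYT11 (chr1:155859317-155859566, plus strand): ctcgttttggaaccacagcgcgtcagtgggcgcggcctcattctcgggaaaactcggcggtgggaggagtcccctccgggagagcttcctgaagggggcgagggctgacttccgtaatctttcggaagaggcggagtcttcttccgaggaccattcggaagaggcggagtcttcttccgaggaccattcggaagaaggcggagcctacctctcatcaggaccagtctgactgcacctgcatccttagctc
SNAP23 (chr15:42495384-42495633, plus strand): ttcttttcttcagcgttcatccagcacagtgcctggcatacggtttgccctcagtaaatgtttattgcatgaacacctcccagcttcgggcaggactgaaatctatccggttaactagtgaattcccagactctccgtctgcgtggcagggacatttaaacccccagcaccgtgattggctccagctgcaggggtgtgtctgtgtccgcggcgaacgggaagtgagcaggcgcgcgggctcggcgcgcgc

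STX1A held 7 GC boxes in a window of 80.8% G and C. SYT5 held 4 X-box cores and 1 GC box before its first listed start, and 2 GC boxes before its second. The SYT4, SYT11 and SNAP23 windows held neither motif. The GC box was found in 47 of 69 member windows (68.1%) and in 42.6% of the 35116 windows of the table. The X-box core was found in 7 of 69 (10.1%) and in 10.2%. The cyclic-AMP element was found before STX12 and STXBP3, in 2.9% of member windows and 1.65% of all, and TATAAA before SYT16, in 1.45% and 10.7%. A match describes letters in a window and is not a binding site.

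Set against hPSC, GFP+ sBC RNA held far more of several genes of regulated release. Of 56 members tested, 20 rose and 12 fell (edgeR quasi-likelihood test, Benjamini-Hochberg adjusted p under 0.05 over all genes). Over all 23321 genes tested, 30.4% rose and 30.9% fell, and the median log2 fold change was 0.12 over the tested members and 0.04 over all genes. SNAP25, SYT4, SYT7, STX1A and SYT13 each rose by over 4 on the log2 scale. Without each library in turn, 15 of the 20 risen and 5 of the 12 fallen members kept their call, also under the other planned settings. The number that fell was 5 without GFP+ sBC replicate 1, 7 without hPSC replicate 1 and 6 without hPSC replicate 2.

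Among the SNAREs of regulated release, SNAP25 (ENSG00000132639.12, chr20:10218830-10307418), the SNAP protein of synaptic and islet exocytosis, stood at 61.4 and 88.8 CPM in GFP+ sBC RNA, against 0.397 and 0.211 CPM in hPSC RNA. Its log2 fold change was 7.94 ± 0.63 (adjusted p = 4.36e-05), with the error given as SE. STX1A (ENSG00000106089.11, chr7:73699210-73719669), the plasma membrane syntaxin of regulated release, stood at 106 and 112 CPM in GFP+ sBC, against 2.97 and 3.14 CPM in hPSC. The groups were wide apart for both genes, and STX1A rose by 5.15 ± 0.33 log2 units (adjusted p = 1.92e-05). VAMP2, the vesicle SNARE cut by tetanus toxin, was at 68.8 and 65.6 CPM in GFP+ sBC, against 22.9 and 24.6 CPM in hPSC. It rose by 1.5 ± 0.28 log2 units (adjusted p = 0.00254). VAMP1 did not pass the test (adjusted p = 0.506). SNAP25, STX1A and VAMP2 kept their calls without each library in turn. An antisense gene overlaps SNAP25, and the strand used in counting is not given in the sources used here.

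The SM proteins STXBP2 and STXBP3, found in many cell types, did not pass (adjusted p = 0.781 and 0.92). Of the other syntaxin binders, STXBP5 (tomosyn, which competes with VAMP for the syntaxin and SNAP complex) had 66.4 and 63.4 CPM in GFP+ sBC, against 13.9 and 15.2 CPM in hPSC. The groups did not overlap for STXBP5, which rose by 2.16 ± 0.36 log2 units (adjusted p = 0.00149) and kept its call without each library in turn. STXBP4 rose by 1.0 ± 0.33 log2 units (adjusted p = 0.0324), with an adjusted p of up to 0.158 when 1 library was left out.

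Of the complexins, CPLX2 had 47.7 and 61.3 CPM in GFP+ sBC, against 3.80 and 3.77 CPM in hPSC. CPLX1 had 13.3 and 14.3 CPM in GFP+ sBC, against 2.37 and 2.32 CPM in hPSC. Both stood above every hPSC library, and they rose by 3.85 ± 0.32 log2 units (adjusted p = 5.29e-05) for CPLX2 and 2.55 ± 0.23 log2 units (adjusted p = 6.6e-05) for CPLX1. CPLX3, known from the retina, had 0.086 and 0.16 CPM in GFP+ sBC, against 0.603 and 0.703 CPM in hPSC, and fell by 2.38 ± 0.65 on the log2 scale (adjusted p = 0.0144), with an adjusted p of up to 0.0879 without 1 library. CPLX4 was not tested. Among the UNC13 priming factors, UNC13B had 265 and 275 CPM in GFP+ sBC, against 139 and 139 CPM in hPSC, and rose by 0.96 ± 0.16 log2 units (adjusted p = 0.00128). UNC13A, the main neuronal form, had 158 and 172 CPM in GFP+ sBC, against 152 and 154 CPM in hPSC, and did not pass the test (log2 fold change 0.11 ± 0.20, adjusted p = 0.644).

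Among the 17 synaptotagmins, 8 rose and 4 fell. SYT7 (ENSG00000011347.9, chr11:61513714-61588387), a slow, high-affinity calcium sensor used in islet hormone secretion, was at 502 and 472 CPM in GFP+ sBC, against 7.55 and 7.65 CPM in hPSC. Its log2 fold change was 6.0 ± 0.22 (adjusted p = 5.5e-06). SYT4 (ENSG00000132872.11, chr18:43267892-43277490), which binds little calcium and is linked to beta cell maturation in mice, was at 221 and 188 CPM in GFP+ sBC, against 2.65 and 2.64 CPM in hPSC. The libraries did not overlap for either gene, and SYT4 rose by 6.27 ± 0.29 log2 units (adjusted p = 7.39e-06). SYT13, a synaptotagmin that binds no calcium and marks endocrine precursors in the mouse pancreas, was at 269 and 362 CPM in GFP+ sBC, against 12 and 12.6 CPM in hPSC, and rose by 4.68 ± 0.36 log2 units (adjusted p = 3.81e-05). SYT11, another form that binds no calcium, was at 178 and 213 CPM in GFP+ sBC, against 21.2 and 21.2 CPM in hPSC, and rose by 3.21 ± 0.28 log2 units (adjusted p = 6.54e-05). These 4 kept their calls without each library in turn.

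SYT5, a calcium-binding form found on dense-core vesicles, had 24.9 and 39.4 CPM in GFP+ sBC, against 2.97 and 2.63 CPM in hPSC, and rose by 3.52 ± 0.28 log2 units (adjusted p = 4.83e-05). SYT16, which lacks calcium-binding residues, had 23.8 and 30.4 CPM in GFP+ sBC, against 5.87 and 6.23 CPM in hPSC, and rose by 2.16 ± 0.46 log2 units (adjusted p = 0.00503). SYT1, the fast calcium sensor of synapses, had 24.3 and 20.2 CPM in GFP+ sBC, against 14.9 and 14.9 CPM in hPSC. The groups did not overlap for SYT1, but its log2 fold change of 0.58 ± 0.24 was not called, at an adjusted p of 0.0696. SYT6 had 9.0 and 12.1 CPM in GFP+ sBC, against 41.3 and 47.7 CPM in hPSC, and fell by 2.08 ± 0.24 on the log2 scale (adjusted p = 0.000245). SYT12 had 0.258 and 0.426 CPM in GFP+ sBC, against 4.60 and 4.26 CPM in hPSC, and fell by 3.68 ± 0.41 on the log2 scale (adjusted p = 0.000194). SYT5, SYT16, SYT6 and SYT12 kept their calls without each library. SYT15 and SYT17 also rose, and SYT2 and SYT3 also fell, each losing the call without at least 1 library, with adjusted p of up to 0.131 for SYT15, 0.176 for SYT17, 0.055 for SYT2 and 0.0699 for SYT3. SYT15 has a near-identical copy in the genome, with which its reads may be shared, so its value is uncertain.

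**Figure D2:**
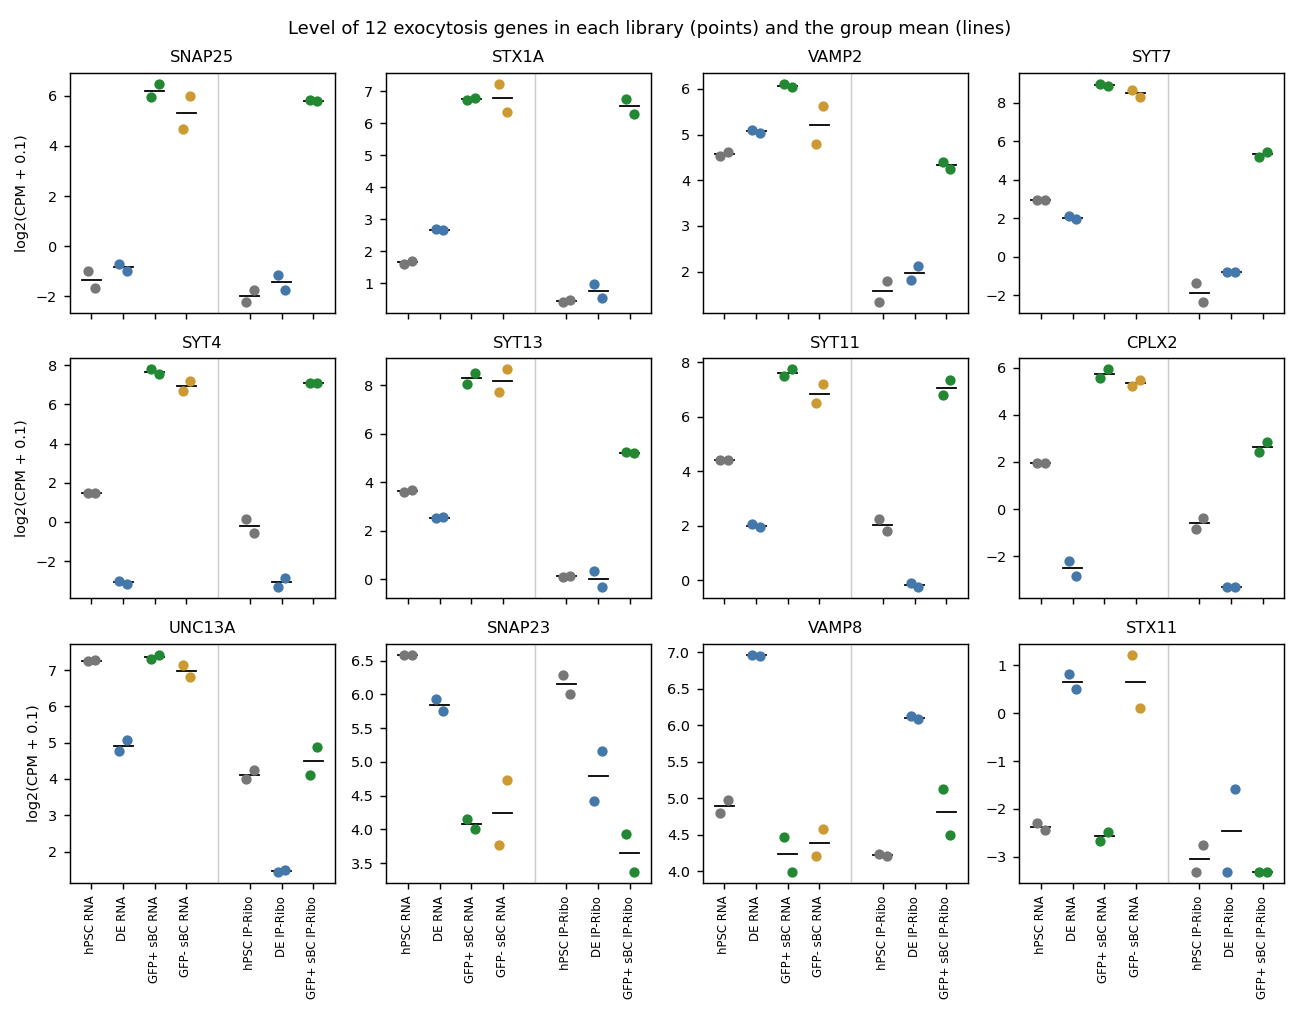
Each panel plots log2(CPM + 0.1) of 1 gene, with a point per library and a line at the group mean, for RNA on the left and IP-Ribo on the right of the grey line. SNAP25, STX1A, SYT7, SYT4, SYT13 and SYT11 separate all sBC libraries from hPSC and DE, and VAMP8 is highest in DE in both assays.

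Among the SNAREs outside the release group, SNAP23 and STX6 fell and STX12 rose. SNAP23 (ENSG00000092531.9, chr15:42491129-42533058), which takes the place of SNAP25 in most cells that are not neurons, had 17.7 and 15.9 CPM in GFP+ sBC RNA, against 96.2 and 96.1 CPM in hPSC RNA. It fell by 2.52 ± 0.32 on the log2 scale (adjusted p = 0.0004). Its RefSeq span overlaps ZNF106 and LRRC57. STX6, a syntaxin of the Golgi and endosomes, had 21.9 and 23.3 CPM in GFP+ sBC, against 95.8 and 97.6 CPM in hPSC, and fell by 2.10 ± 0.19 on the log2 scale (adjusted p = 7.22e-05). STX12, an endosomal syntaxin, had 53.3 and 49.2 CPM in GFP+ sBC, against 17.2 and 15.3 CPM in hPSC, and rose by 1.66 ± 0.31 log2 units (adjusted p = 0.00263). The groups did not overlap for these 3 genes, which kept their calls without each library in turn. Of the 9 other plasma membrane SNAREs tested, 1 rose (STX3) and 2 fell (SNAP23 and VAMP8). Of the 12 SNAREs of the Golgi, endoplasmic reticulum and endosomes, 2 rose (STX12 and STX17) and 4 fell (STX6, STX7, STX18 and SNAP47). Over all genes tested, 30.4% rose and 30.9% fell. STX4, VAMP3, SNAP29 and STXBP6 did not pass (adjusted p = 0.0979, 0.562, 0.623 and 0.475), nor did UNC13D (adjusted p = 0.0598). With 1 library left out, the adjusted p reached 0.1 for STX3, 0.356 for VAMP8, 0.191 for STX17, 0.136 for STX7, 0.147 for STX18 and 0.126 for SNAP47.

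Footprints on tagged ribosomes, which report mRNA being translated, had the same direction for most release genes. In GFP+ sBC IP-Ribo against hPSC IP-Ribo, 19 of 47 tested members rose and 6 fell, where 30.4% and 28.5% of all 16018 genes tested did. The median log2 fold change was 0.42 over the tested members and -0.01 over all genes. With protein-coding nuclear genes alone, 20 members rose and 6 fell, where 36.4% and 30% of the 13638 genes tested did. The medians were then 0.52 over the tested members and 0.15 over those genes, so the members stood less far from the other genes. The other 11 members did not pass the filter on low counts. Of the 47 genes tested in both assays, 16 rose in both, 4 fell in both (SNAP23, STX6 and SYT6 among them), none was called in opposite directions, and 43 had the same sign. Over all 14798 genes tested in both, 23.7% rose in both, 25.9% fell in both, 1.29% were called in opposite directions and 84.4% had the same sign.

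SNAP25 was at 57.2 and 55.4 CPM in GFP+ sBC IP-Ribo, against 0.113 and 0.193 CPM, or 2 and 4 counts, in hPSC IP-Ribo, and rose by 8.42 ± 0.39 log2 units (adjusted p = 1.63e-05). STX1A was at 108 and 79.2 CPM in GFP+ sBC, against 1.24 and 1.30 CPM in hPSC, and rose by 6.19 ± 0.33 log2 units (adjusted p = 1.73e-05). SYT4 was at 137 and 138 CPM in GFP+ sBC, against 1.02 and 0.578 CPM in hPSC, and rose by 7.43 ± 0.38 log2 units (adjusted p = 1.68e-05). No library of one group came near the other for these genes. SYT7 was at 36.3 and 43.7 CPM in GFP+ sBC, against 0.283 and 0.0964 CPM, or 5 and 2 counts, in hPSC, and rose by 7.70 ± 0.46 log2 units (adjusted p = 2.29e-05). SYT11 was at 111 and 161 CPM in GFP+ sBC, against 4.69 and 3.37 CPM in hPSC, and rose by 5.08 ± 0.32 log2 units (adjusted p = 2.7e-05). SYT13 rose by 5.22 ± 0.34 log2 units (adjusted p = 2.94e-05). These 6 kept their calls without each library in turn.

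VAMP2 rose by 2.78 ± 0.32 log2 units (adjusted p = 0.000291) in IP-Ribo, UNC13B by 1.48 ± 0.23 log2 units (adjusted p = 0.00121) and CPLX2 by 3.43 ± 0.60 log2 units (adjusted p = 0.00303). SYT1 passed in footprints, with 26.0 and 19.0 CPM in GFP+ sBC, against 6.5 and 3.33 CPM in hPSC, and rose by 2.20 ± 0.39 log2 units (adjusted p = 0.00235). SNAP23 had 15.1 and 10.2 CPM in GFP+ sBC, against 78.3 and 64.3 CPM in hPSC, and fell by 2.49 ± 0.34 on the log2 scale (adjusted p = 0.000647). STX6 fell by 1.56 ± 0.27 on the log2 scale (adjusted p = 0.00187). Each of these kept its call without each library. SYT5, SYT16, CPLX1, SYT14, STXBP4 and VAMP3 rose and VAMP1 and STX4 fell, but each lost the call without at least 1 library, with adjusted p of up to 0.054 for SYT5, 0.0827 for SYT16, 0.095 for CPLX1, 0.209 for SYT14, 0.109 for STXBP4, 0.107 for VAMP3, 0.165 for VAMP1 and 0.142 for STX4. SYT5 rested on 1 and 5 counts in hPSC IP-Ribo, and VAMP1 on 1 and 1 counts in GFP+ sBC IP-Ribo.

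Markers of other cell types were summed beside these results. CPM are scaled within each assay, so a sum that differs between RNA and IP-Ribo does not show more or fewer cells of a type. The summed level of 5 duct and progenitor markers was 981 and 1120 CPM in GFP+ sBC IP-Ribo and 196 and 309 CPM in GFP+ sBC RNA. The 4 acinar markers came to 62.6 and 106 CPM in IP-Ribo and 2.84 and 4.93 CPM in RNA, the 6 mesenchyme markers to 78.4 and 104 CPM in IP-Ribo and 9.15 and 8.13 CPM in RNA, and the 3 cell cycle genes to 66.6 and 22.7 CPM in IP-Ribo and 5.39 and 2.24 CPM in RNA of GFP+ sBC. Each was higher in both IP-Ribo libraries, and of these markers PTF1A alone had 0 counts there. Endocrine sums went both ways. The pan-endocrine sum was also higher, at 20300 and 23300 CPM in IP-Ribo, against 16500 and 20100 CPM in RNA, as were the alpha and delta sums. The beta sum was lower, at 3970 and 3080 CPM, against 5480 and 5770 CPM, as was that of other endocrine markers. Endothelial and immune markers came to 22.5 and 137 CPM in IP-Ribo and 31.2 and 33.2 CPM in RNA. Since many release genes are also neuronal, 10 markers of neurons and glia were summed, of which 10 had counts in GFP+ sBC RNA and 9 in GFP+ sBC IP-Ribo. They came to 132 and 166 CPM in GFP+ sBC RNA, against 135 and 120 CPM in hPSC RNA, and to 95.2 and 150 CPM in GFP+ sBC IP-Ribo, against 80.8 and 51.8 CPM in hPSC IP-Ribo. The neuronal marker RBFOX3, 1 of the 10, was at 1.03 and 1.31 CPM in GFP+ sBC RNA, against 17.7 and 17.0 CPM in hPSC RNA. It does not stand for the list, whose sums overlapped between these stages in RNA and were higher in GFP+ sBC in IP-Ribo. The part of other cell types in the changes was not tested.

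**Figure D3:**
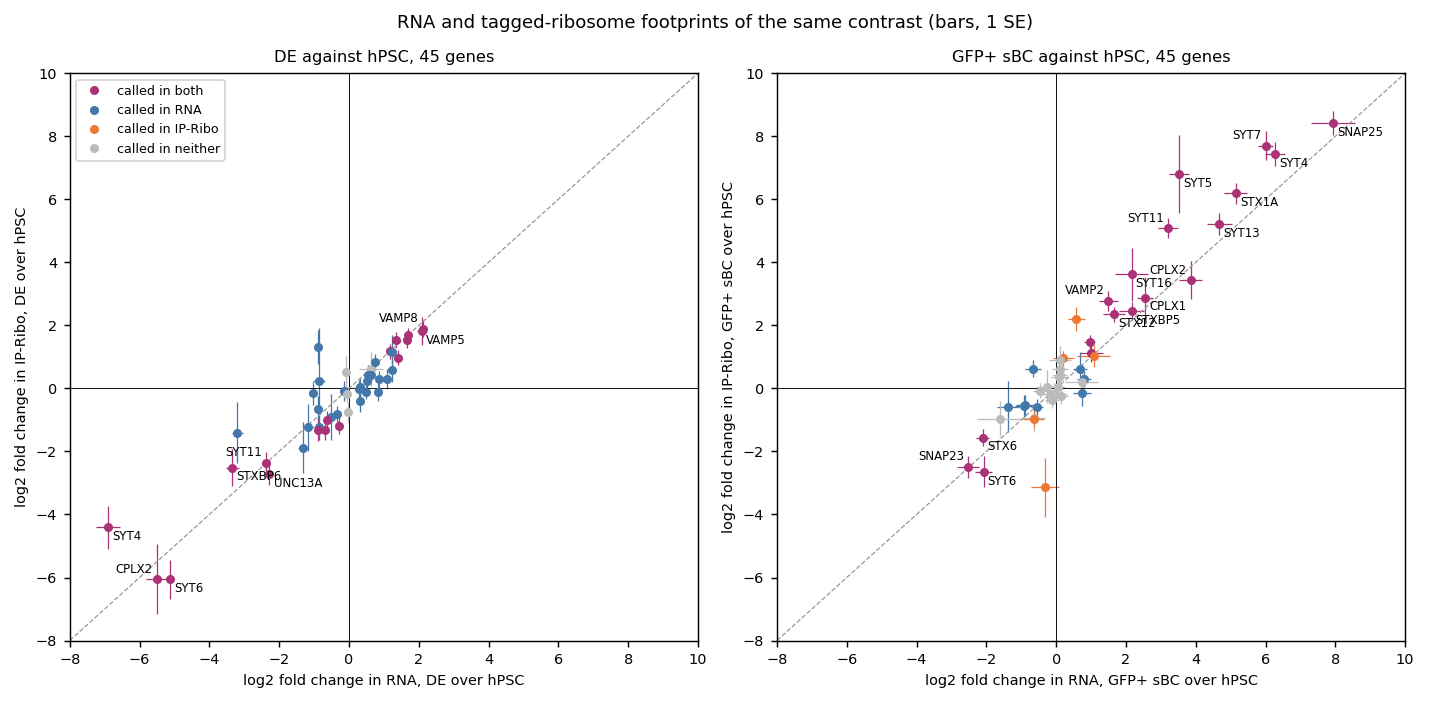
Points are 45 of the members tested in both assays, with the log2 fold change in RNA on the x axis, that in IP-Ribo on the y axis, bars of 1 SE and a dashed line of equal change. In GFP+ sBC against hPSC, SNAP25, SYT7, SYT4, STX1A and SYT13 lie far up in both assays, and in DE against hPSC, CPLX2, SYT6 and SYT4 lie far down in both.

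The balance between relatives of 1 SNARE class differed between stages. The ratio of SNAP25 counts to SNAP23 counts depends on the transcripts' lengths and is read only between libraries of an assay. It was 0.00413 and 0.00219 in hPSC RNA, 0.00835 and 0.00755 in DE RNA, 1.87 and 2.43 in GFP- sBC RNA and 3.48 and 5.58 in GFP+ sBC RNA. In IP-Ribo it was 3.78 and 5.44 in GFP+ sBC, against 0.00144 and 0.003 in hPSC, so that every sBC library was above every hPSC library in both assays. The ratio of STX1A to STX4 counts was 6.71 and 6.28 in GFP+ sBC RNA, against 0.122 and 0.112 in hPSC RNA, and 9.88 and 10.1 in GFP+ sBC IP-Ribo, against 0.0783 and 0.0629 in hPSC IP-Ribo. The ratio of VAMP2 to VAMP8 counts was 0.825 and 0.783 in hPSC RNA, 0.274 and 0.265 in DE RNA and 3.11 and 4.18 in GFP+ sBC RNA, lowest in DE. In IP-Ribo it was 0.13 and 0.185 in hPSC, 0.0491 and 0.0635 in DE and 0.603 and 0.842 in GFP+ sBC. VAMP8 itself fell in GFP+ sBC RNA against hPSC RNA but was not called in IP-Ribo. These ratios are given as descriptions, with no test.

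**Figure D4:**
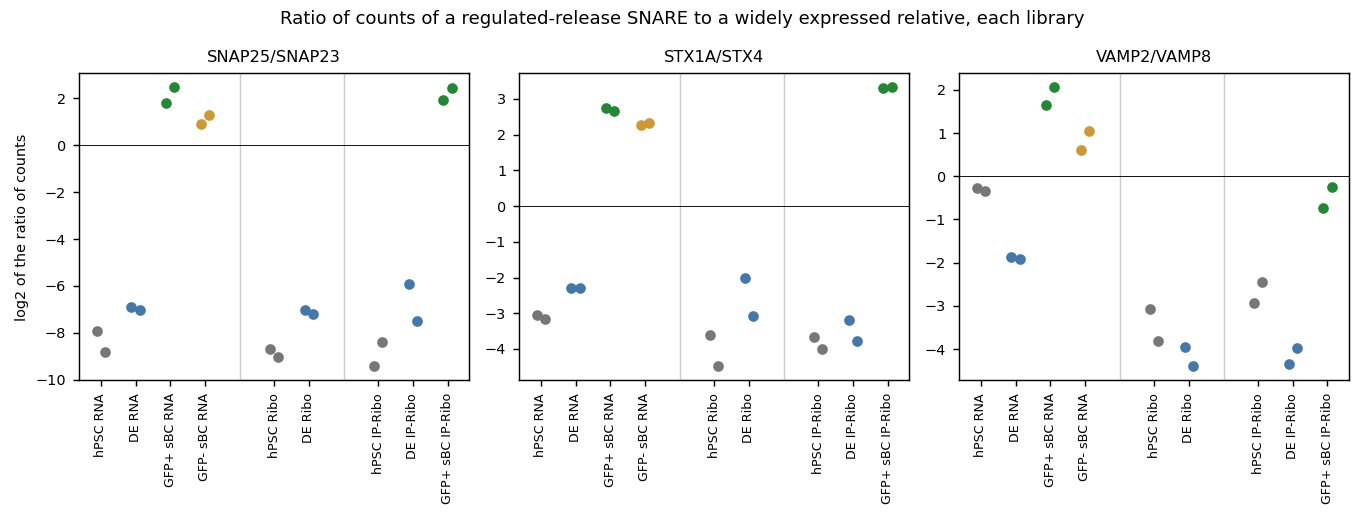
Each point is 1 library, and the y axis is log2 of the ratio of counts of the first gene to the second, for RNA, Ribo and IP-Ribo. All sBC libraries lie above all DE and hPSC libraries of the same assay in each of the 3 pairs.

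Endoderm differentiation moved the members in both directions. In DE RNA against hPSC RNA, 24 of 55 tested members rose and 27 fell, where 38.7% and 36.8% of all 20634 genes tested did. Replicates were close, so small changes passed: 11 members rose and 12 fell when tested against a log2 fold change of 1, a setting chosen after seeing the data. In that test 14% of all genes rose and 11.9% fell. By role, 13 of 16 tested synaptotagmins and all 3 tested complexins fell, whereas 8 of 9 other plasma membrane SNAREs tested rose. CPLX1, SNAP47, STXBP4, SYT9 and VAMP4 lost their calls without at least 1 library, with adjusted p of up to 0.0741 for CPLX1, 0.233 for SNAP47, 0.0941 for STXBP4, 0.293 for SYT9 and 0.0725 for VAMP4.

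The deepest falls lay in synaptotagmins and complexins. SYT4 had 2 and 1 counts in DE RNA (0.0262 and 0.0131 CPM), against 2.65 and 2.64 CPM in hPSC RNA. The ratio of DE to hPSC was 0.00742, with an exact 95% interval of 0.00152 to 0.0218 that covers counting error only (adjusted p = 1.64e-08 in the edgeR test). CPLX2 had 0.118 and 0.0393 CPM in DE, against 3.80 and 3.77 CPM in hPSC, and fell by 5.51 ± 0.30 on the log2 scale (adjusted p = 3.44e-08). The stages did not overlap for either gene. CPLX3, low in both stages, had 0.0131 and 0.0524 CPM in DE (1 and 4 counts), against 0.603 and 0.703 CPM in hPSC, and fell by 4.20 ± 0.48 on the log2 scale (adjusted p = 1.4e-05). SYT6 had 1.31 and 1.14 CPM in DE, against 41.3 and 47.7 CPM in hPSC, and fell by 5.13 ± 0.11 on the log2 scale (adjusted p = 3.22e-11). STXBP6 (amisyn, a brake on SNARE assembly) had 1.29 and 0.785 CPM in DE, against 10.3 and 11.6 CPM in hPSC, and fell by 3.34 ± 0.19 on the log2 scale (adjusted p = 3.19e-07). UNC13A had 27.0 and 33.6 CPM in DE, against 152 and 154 CPM in hPSC, and fell by 2.28 ± 0.10 on the log2 scale (adjusted p = 3.56e-06). These also stood apart without overlap. SYT16 fell by 3.20 ± 0.16 on the log2 scale (adjusted p = 1.61e-08), SYT12 fell by 3.18 ± 0.18 on the log2 scale (adjusted p = 4.67e-08) and SYT11 fell by 2.38 ± 0.09 on the log2 scale (adjusted p = 1.98e-09). The 10 markers of neurons and glia summed to 53.6 and 44.6 CPM in DE RNA and 135 and 120 CPM in hPSC RNA, and their part in these falls was not tested.

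The rises in DE included SNAREs of epithelial and endosomal traffic, but not all SNAREs of these roles rose. SNAP23, the 1 other plasma membrane SNARE that fell, had a mean of 57.4 CPM in DE RNA, against 96.2 CPM in hPSC RNA. It was also called lower in Ribo and IP-Ribo, calls lost without at least 1 library. Of the 12 SNAREs of the Golgi, endoplasmic reticulum and endosomes, 8 rose in DE RNA and 4 fell (STX6, STX10, STX18 and SNAP47). VAMP8 (ENSG00000118640.10, chr2:85577586-85582031), a vesicle SNARE of endosomes and of exocrine secretion, had 125 and 123 CPM in DE RNA, against 27.7 and 31.4 CPM in hPSC RNA, and rose by 2.12 ± 0.06 log2 units (adjusted p = 2.9e-10). STX3, the apical syntaxin of epithelia, had 213 and 201 CPM in DE, against 75.1 and 85.9 CPM in hPSC, and rose by 1.41 ± 0.06 log2 units (adjusted p = 2.16e-08). STXBP2, the SM partner of STX3, had 80.9 and 87.0 CPM in DE, against 34.0 and 34.5 CPM in hPSC, and rose by 1.35 ± 0.06 log2 units (adjusted p = 5.14e-09). All 3 separated the stages without overlap. STX12 rose by 1.70 ± 0.07 log2 units (adjusted p = 4.15e-09), STXBP5 by 1.65 ± 0.07 log2 units (adjusted p = 3.14e-09) and VAMP5, first known from muscle, by 2.08 ± 0.13 log2 units (adjusted p = 1.16e-07). STX11, a syntaxin of cytotoxic lymphocytes, was low throughout but had 1.65 and 1.32 CPM in DE, against 0.103 and 0.0844 CPM in hPSC, and rose by 4.02 ± 0.31 log2 units (adjusted p = 5.66e-07). STX1A had 6.44 and 6.19 CPM in DE and rose by 1.10 ± 0.12 log2 units (adjusted p = 8.15e-06). SNAP25 had 0.51 and 0.406 CPM in DE, against 0.397 and 0.211 CPM in hPSC, and did not pass (adjusted p = 0.12).

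Tagged-ribosome footprints of DE and hPSC gave fewer calls. In IP-Ribo, 7 of 47 tested members rose and 12 fell, where 9.78% and 12.5% of all genes tested did. Each of these 19 was called in RNA in the same direction, as were 96.3% of all genes called in IP-Ribo and tested in both. With protein-coding nuclear genes alone, 8 members rose and 12 fell, where 15.8% and 15.4% of genes did. Leaving out any 1 DE or hPSC IP-Ribo library left fewer members called in each direction, and also fewer of all genes. The median log2 fold change over the tested members was -0.23 without hPSC IP-Ribo replicate 1 and -0.13 without replicate 2, where it was -0.04 and -0.03 over all genes. SYT6, SYT4, UNC13A and SYT11 among the falls and STX12 and VAMP8 among the rises kept their calls without each library. SYT6 was at 0.236 and 0.195 CPM in DE IP-Ribo, against 11.6 and 17.2 CPM in hPSC IP-Ribo, and fell by 6.06 ± 0.61 on the log2 scale (adjusted p = 0.00127). UNC13A was at 2.59 and 2.69 CPM in DE, against 15.8 and 18.9 CPM in hPSC, and fell by 2.71 ± 0.34 on the log2 scale (adjusted p = 0.00274). CPLX2 had 0 and 0 counts in DE IP-Ribo, against 8 and 14 counts in hPSC IP-Ribo, and was at least 6.52-fold lower in DE, with a floor of 3 counts over the group. Its adjusted p was 0.0134, and up to 0.0545 with 1 library left out. VAMP8 was at 69.6 and 67.5 CPM in DE, against 18.7 and 18.3 CPM in hPSC, and rose by 1.89 ± 0.27 log2 units (adjusted p = 0.00422).

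In footprints of all ribosomes, 13 of 43 tested members rose and 13 fell in DE against hPSC, where 17.2% and 16.9% of all genes tested did. With protein-coding nuclear genes alone, 15 members rose and 14 fell, where 24.7% and 23.1% of genes did. SYT6 was at 0.316 and 0.0877 CPM in DE Ribo, against 8.23 and 6.39 CPM in hPSC Ribo, and fell by 5.37 ± 0.55 on the log2 scale (adjusted p = 0.0036). VAMP8 was at 73.1 and 67.6 CPM in DE Ribo, against 20.9 and 25.9 CPM in hPSC Ribo, and rose by 1.58 ± 0.17 log2 units (adjusted p = 0.00394). The stages did not overlap for either gene. Leaving out a library mattered here: 0 members rose and 0 fell without hPSC Ribo replicate 1, and 0 rose and 0 fell without hPSC Ribo replicate 2, where at most 0.801% of all genes rose and 0.383% fell.

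Set against DE, GFP+ sBC held far more of several genes that were low in DE. In RNA, 19 of 56 tested members rose and 15 fell, where 29.9% and 30.9% of all genes tested did, and 9 fell without DE replicate 1. In IP-Ribo, 21 of 47 rose and 7 fell, where 27.8% and 24.8% of all genes did; 4 fell without DE replicate 2 and 4 without GFP+ sBC replicate 2. With protein-coding nuclear genes alone, 21 members rose and 8 fell in IP-Ribo, where 32.2% and 28.7% of genes did. These comparisons share the GFP+ sBC libraries with those against hPSC. SYT4, with 3 counts over the DE RNA libraries, was 10400-fold higher in GFP+ sBC RNA, with an exact 95% counting interval of 3560 to 50400. CPLX2 rose by 9.40 ± 0.44 log2 units (adjusted p = 8.26e-06) in RNA and was at least 70.9-fold higher in GFP+ sBC IP-Ribo, where DE had 0 counts. In RNA, SYT11 rose by 5.64 ± 0.31 log2 units (adjusted p = 1.27e-05), SYT16 by 5.41 ± 0.55 log2 units (adjusted p = 0.000151), SYT6 by 3.10 ± 0.26 log2 units (adjusted p = 5.88e-05) and UNC13A by 2.44 ± 0.21 log2 units (adjusted p = 6.23e-05). VAMP8 had 22.1 and 15.7 CPM in GFP+ sBC RNA, against 125 and 123 CPM in DE RNA, and fell by 2.72 ± 0.25 on the log2 scale (adjusted p = 9.5e-05). STXBP2 fell by 1.21 ± 0.24 on the log2 scale (adjusted p = 0.00409) and STX5, a Golgi syntaxin, fell by 1.56 ± 0.22 on the log2 scale (adjusted p = 0.000714). The RNA calls named here held without each library in turn.

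The GFP sort divides sBC by the activity of the insulin gene, and few of these genes were called across it. In GFP+ sBC RNA against GFP- sBC RNA, 0 of 54 tested members rose and 2 fell by edgeR, where 0.0808% and 2.35% of all 19797 genes tested did. DESeq2 also called 0 and 2, where it called 0.535% of all genes higher and 5.84% lower. By edgeR 2 of the 54 members had an unadjusted p under 0.05, as did 2391 of the 19797 genes. The libraries of the sorts did not overlap for 30 members, 21 of them higher and 9 lower in GFP+ sBC, while 45.7% of all genes tested did not overlap, 23.0% higher and 22.6% lower, and 2.43% were called in either direction. STX11 had 0.0573 and 0.0799 CPM in GFP+ sBC, or 2 and 3 counts, against 2.23 and 0.969 CPM in GFP- sBC. UNC13C, a priming factor best known from the cerebellum, had 1 and 0.453 CPM in GFP+ sBC, against 6.61 and 7.28 CPM in GFP- sBC. Every GFP+ library was below every GFP- library for both. STX11 fell by 4.48 ± 0.82 on the log2 scale (adjusted p = 0.0348) and UNC13C fell by 3.26 ± 0.57 on the log2 scale (adjusted p = 0.0308). Leaving out GFP- replicate 1, GFP+ replicate 1 or GFP+ replicate 2 ended the call of STX11, with an adjusted p of up to 0.107, and leaving out GFP+ replicate 2 ended that of UNC13C, at 0.222. Marker sums of other cell types went both ways across the sort. The alpha sum was higher in both GFP+ libraries, at 37100 and 24400 CPM, against 20300 and 13100 CPM in GFP- sBC. So was the delta sum, at 992 and 1060 CPM, against 208 and 223 CPM, and that of endothelial and immune markers. Sums of neurons and glia (132 and 166 CPM, against 248 and 113 CPM) and of other endocrine markers overlapped. The sums that follow were lower in both GFP+ libraries. The 5 duct and progenitor markers summed to 196 and 309 CPM in GFP+ sBC RNA, against 1450 and 1360 CPM in GFP- sBC RNA, and 4 acinar markers to 2.84 and 4.93 CPM in GFP+ sBC, against 73.8 and 94.0 CPM in GFP- sBC. The sum of 6 mesenchyme markers was 9.15 and 8.13 CPM in GFP+ sBC, against 170 and 78.3 CPM in GFP- sBC, and that of 3 cell cycle genes was 5.39 and 2.24 CPM in GFP+ sBC, against 117 and 43.4 CPM in GFP- sBC. Each duct, progenitor, acinar, mesenchyme and cell cycle marker had counts in both sorts. The part of other cell types in the falls of STX11 and UNC13C was not tested.

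The release genes were present on both sides of the sort. SNAP25 had 61.4 and 88.8 CPM in GFP+ sBC, against 25.2 and 64.3 CPM in GFP- sBC, which overlap (log2 fold change 0.74 ± 0.49, adjusted p = 0.635). STX1A had 106 and 112 CPM in GFP+ sBC, against 150 and 82.6 CPM in GFP- sBC (-0.10 ± 0.38, adjusted p = 0.928), and SYT13 had 269 and 362 CPM in GFP+ sBC, against 211 and 403 CPM in GFP- sBC (0.03 ± 0.40, adjusted p = 0.982). Both overlapped, and both changed sign with 1 library left out. SYT7 had 502 and 472 CPM in GFP+ sBC, against 402 and 320 CPM in GFP- sBC. SYT4 had 221 and 188 CPM in GFP+ sBC, against 103 and 149 CPM in GFP- sBC. VAMP2 had 68.8 and 65.6 CPM in GFP+ sBC, against 27.6 and 49.2 CPM in GFP- sBC. For SYT7, SYT4 and VAMP2 both GFP+ libraries were above both GFP- libraries, with log2 fold changes of 0.42 ± 0.32, 0.69 ± 0.34 and 0.80 ± 0.39, but none passed (adjusted p = 0.667, 0.505 and 0.494). A p that misses the threshold does not show equal levels. Without GFP- replicate 2, 17 members rose and 9 fell, where 16.8% of all genes rose and 19.8% fell. The 5 pan-endocrine markers summed to 16500 and 20100 CPM in GFP+ sBC, against 23500 and 14800 CPM in GFP- sBC, and their part in these values was not tested.

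**Figure D5:**
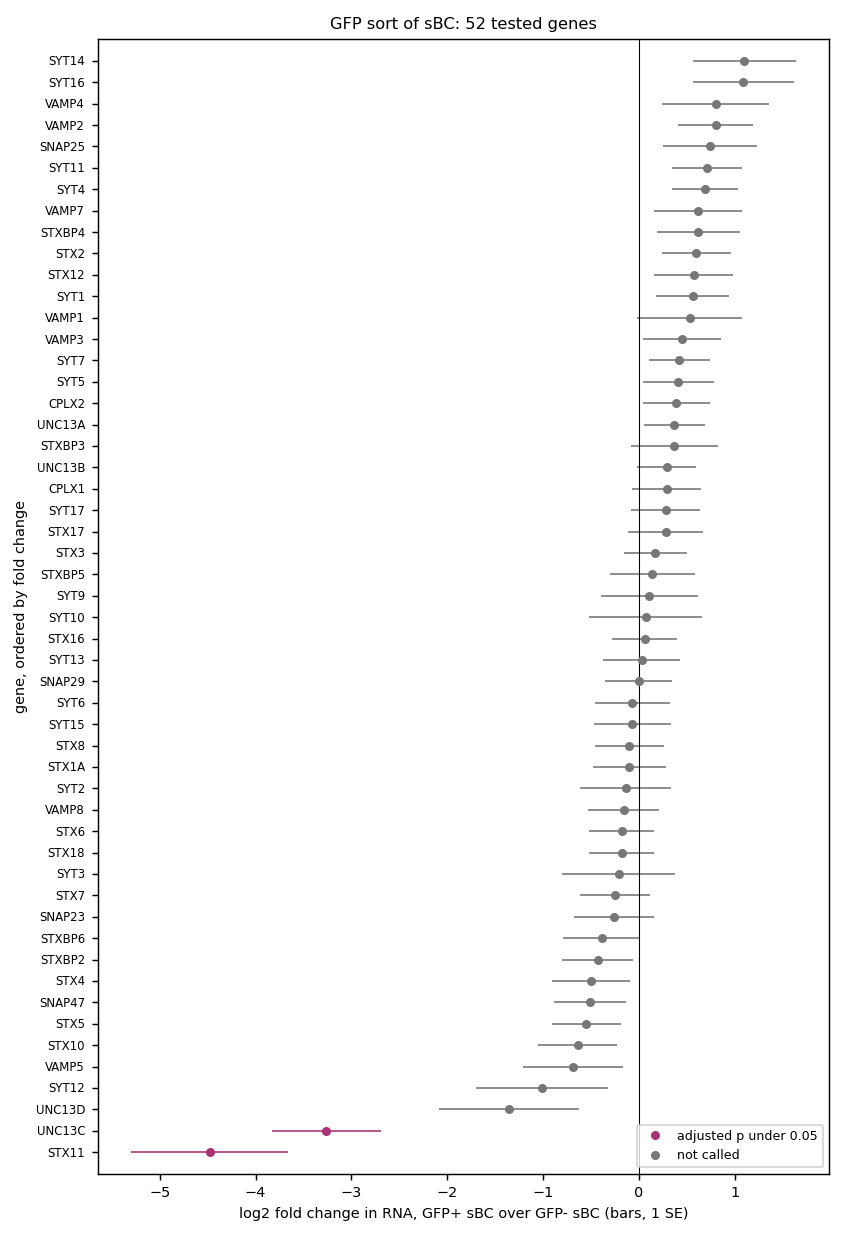
Points give the log2 fold change in RNA of 52 tested genes, GFP+ sBC over GFP- sBC, with bars of 1 SE, and colour marks those with adjusted p under 0.05. STX11 at -4.48 and UNC13C at -3.26 lie lowest.

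GFP- sBC were also set against hPSC, in a comparison that shares the hPSC libraries with that of GFP+ sBC. Of 56 tested members, 18 rose and 8 fell, where 31.2% and 28.3% of all genes tested did. Leaving out GFP- replicate 1, 14 fell, and leaving out GFP- replicate 2, 17 did, where 31.5% and 32.9% of all genes fell. SNAP25 rose by 7.20 ± 0.61 log2 units (adjusted p = 7.15e-05), SYT4 by 5.57 ± 0.28 log2 units (adjusted p = 1.13e-05), SYT7 by 5.57 ± 0.22 log2 units (adjusted p = 7.12e-06) and STX1A by 5.25 ± 0.33 log2 units (adjusted p = 2.34e-05). SNAP23 fell by 2.27 ± 0.32 on the log2 scale (adjusted p = 0.000697). STX11 rose by 4.07 ± 0.54 log2 units (adjusted p = 0.00056) and UNC13C by 3.65 ± 0.47 log2 units (adjusted p = 0.000495) in GFP- sBC, whereas in GFP+ sBC neither passed against hPSC (adjusted p = 0.621 and 0.482). SYT8 had 1.31 and 0.264 CPM in GFP- sBC and 0 and 0 counts in hPSC, and was at least 39.5-fold higher in GFP- sBC, with a floor of 3 counts over the group. Its adjusted p was 0.0153, and up to 0.0622 with 1 library left out.

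Footprints per RNA were compared by the interaction of assay and stage in 1 model. In GFP+ sBC against hPSC, 5 of 55 tested members gained footprints relative to RNA and 2 lost them, near the 11% and 3.98% of all 22210 genes tested. DESeq2 called 5 and 7, RLE size factors gave 3 and 3, a replicate block gave 1 and 0, and 1 to 3 gained and 0 to 4 lost with any 1 library left out. SYT11 had an IP-Ribo level of 0.696 CPM per RNA CPM in GFP+ sBC, against 0.191 in hPSC, and its change on the log2 scale was 1.63 ± 0.30 (adjusted p = 0.00485). Its adjusted p was 0.0549 without hPSC IP-Ribo replicate 2. SYT7 (1.52 ± 0.41), SYT1 (1.37 ± 0.39), VAMP8 (1.03 ± 0.30) and VAMP2 (1.02 ± 0.27) also gained, with adjusted p of 0.0314, 0.0401, 0.0417 and 0.0261. VAMP1 (-3.13 ± 0.78) lost, with an adjusted p of 0.0211; it rested on 2 counts in GFP+ sBC IP-Ribo, so its fold is uncertain. Each of these 5 lost its call without at least 3 of the 8 libraries taken out in turn, with adjusted p of up to 0.528 for SYT7, 0.202 for SYT1, 0.337 for VAMP8, 0.258 for VAMP2 and 0.099 for VAMP1. The sBC assays also differ in genotype and in the marker levels of other cell types given above, and the part of either was not tested. In DE against hPSC, 0 members gained and 0 lost by edgeR, where 0.0991% and 0.0675% of all genes did. In that comparison 5 of the 55 members had an unadjusted p under 0.05 by edgeR, as did 2354 of the 22210 genes. DESeq2 called 1 up and 1 down, where it called 1.01% and 2.38% of all genes. Without DE IP-Ribo replicate 2, the median log2 change was -0.38 over the tested members and -0.28 over all genes.

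A list of 48 partners of the fusion machinery, with RAB3 and RAB27 proteins, RIM scaffolds, synaptotagmin-like proteins, exocyst subunits and calcium channels, was measured beside the members. In GFP+ sBC RNA against hPSC RNA, 28 of 48 rose and 7 fell, where 30.4% and 30.9% of all genes did, with a median log2 fold change of 0.94 over the list and 0.04 over all genes. Rises were seen in CACNA1C, by 6.46 ± 0.33 log2 units (adjusted p = 9.19e-06), and CACNA1D, by 6.26 ± 0.26 log2 units (adjusted p = 6.22e-06), pore subunits of L-type calcium channels, and in RIMBP2, which ties channels to release sites, by 4.98 ± 0.38 log2 units (adjusted p = 3.94e-05). CACNA1D had 160 and 122 CPM in GFP+ sBC RNA, against 1.66 and 2.01 CPM in hPSC RNA. In IP-Ribo, 21 of 44 rose and 2 fell, where 30.4% and 28.5% of all genes did, with a median of 1.08 over the list and -0.01 over all genes. Across the sort, 1 of 47 partners was called: SV2B, a vesicle glycoprotein, had 6.94 and 9.86 CPM in GFP+ sBC, against 91.4 and 124 CPM in GFP- sBC, and fell by 3.69 ± 0.41 on the log2 scale (adjusted p = 0.00647), beside the marker sums of other cell types given for the sort. In DE RNA against hPSC RNA, 21 of 47 rose, among them SYTL5 by 5.51 ± 0.10 log2 units (adjusted p = 1.78e-11), and 18 fell, among them RIMS4, which fell by 3.22 ± 0.07 on the log2 scale (adjusted p = 3.48e-11). These shares of the list lie near the 38.7% and 36.8% of all genes tested.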

How the data were processed

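RNA-seq, ribosome footprints (Ribo) and footprints of FLAG-purified ribosomes (IP-Ribo) were measured in 18 libraries of 9 groups. The authors deposited estimated counts per gene, which need not be whole, and the submitters' processing notes name Salmon, Bowtie, UMI-tools, cutadapt, DESeq2 and GRCh38. The annotation release, the counting strand and the role of each tool are not given in the sources used here. Groups came from the labels, and all columns used were matched to a sample.

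Estimated counts were rounded to whole numbers. Low-count genes were removed with filterByExpr, libraries were scaled by TMM, and groups were compared with edgeR 4.0.16 (R 4.3.3, limma 3.58.1) by the robust quasi-likelihood F test, with Benjamini-Hochberg adjustment over all genes tested and a threshold of 0.05. The SE is the log2 fold change over the square root of F. The sort and the DE and hPSC contrasts in RNA and Ribo used their 4 libraries, the sBC contrasts against hPSC or DE in RNA all 8 RNA libraries, IP-Ribo its 6, and footprints per RNA 12. Counts of 0 were bounded with a floor of 3 counts over the group, and ratios that rest on 1 to 3 counts have exact 95% intervals. Intervals and floors cover counting error only. The method was tested on simulated data.

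Alternatives were DESeq2 1.42.0, RLE size factors, no filter, a replicate block, use of protein-coding nuclear genes alone, the sort fitted with all 8 RNA libraries, Ribo used for IP-Ribo, and leaving out each library. Full statistics go to 24 named members, and otherwise to up to 6 called members per comparison and direction with the largest change and no overlap, and to up to 3 partner genes. Other members with values, such as STX11 and STX12, were chosen after their values were seen. Members and lists were chosen with earlier results of these data known. Footprint levels per coding length were planned and not made, since no protein lengths were used here. Promoter windows came from a RefSeq table; no entry was used for 12 members, CPLX1, SNAP25, STX17, STXBP4, SYT12, SYT13, SYT17, SYT7, SYT8 and UNC13D among them. A few genes are counted among the members and lists but are not reported here by name or shown in the figures.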

Additional observations from a re-analysis of the deposited data

How the results depend on the processing

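Over 2427 single-gene results and settings, 2021 kept direction and call, 395 kept direction and lost the call, 8 gained it and 3 changed sign. This tally covers members called in the main fit and a few named members that were not. Most calls that other members gained, as in the sort without GFP- replicate 2, therefore lie outside it. The sign changes lay in the GFP sort: with 1 library left out, the log2 fold change of STX1A ran from -0.46 to 0.37 and that of SYT13 from -0.39 to 0.59, positive for STX1A when GFP- replicate 1 was left out and negative for SYT13 when GFP- replicate 1 or GFP+ replicate 2 (-0.20) was. The RNA contrasts were also tested against a log2 fold change of 1, a setting added after seeing the data. In the sort 0 members rose and 0 fell, where 0.0152% and 1.22% of all genes did. In DE against hPSC 11 rose and 12 fell, where 14% and 11.9% of all genes did. In GFP+ sBC against hPSC 14 rose and 7 fell (20.8% and 19.3% of all genes). The numbers were 14 and 5 in GFP- sBC against hPSC (21.2% and 16.3%), and 16 and 7 in GFP+ sBC against DE (20.3% and 17.7%). For footprints per RNA in GFP+ sBC against hPSC, no filter on low counts gave 1 gain and 4 losses, RLE size factors 3 gains and DESeq2 7 losses; DESeq2 gave 1 gain and 1 loss in DE against hPSC. Scaling moved the median log2 change of footprints per RNA over all genes, between -0.06 (RLE) and 0.19 (protein-coding nuclear genes alone) for GFP+ sBC against 0.07. The causes were not tested.

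The replicate numbers were not taken as pairs: replicate differences of groups in the same fit correlated between -0.14 and 0.1. With a replicate block, 8 members rose in DE Ribo against hPSC, and 1 gained and 0 lost footprints per RNA in GFP+ sBC against hPSC. Over all genes the sort gave 16 higher and 465 lower, 96 and 1162 with the block, 106 and 1157 by DESeq2, 121 and 1142 in the fit of all 8 RNA libraries, 116 and 1480 with no filter and 3 and 242 against a log2 fold change of 1. With 1 library left out it gave 6 to 101 higher and 365 to 678 lower, except without GFP- sBC replicate 2, where 3587 genes were higher and 4228 lower.

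With 1 library left out, the members that rose and fell numbered 0 to 17 and 0 to 9 in the sort, 23 to 25 and 24 to 25 in DE RNA against hPSC, 15 to 17 and 5 to 8 in GFP+ sBC RNA against hPSC, 13 to 25 and 6 to 17 in GFP- sBC RNA against hPSC, and 16 to 17 and 9 to 11 in GFP+ sBC RNA against DE. They numbered 0 to 13 and 0 to 12 in Ribo. In IP-Ribo they numbered 2 to 6 and 6 to 11 for DE against hPSC, 14 to 19 and 4 to 5 for GFP+ sBC against hPSC, and 19 to 20 and 4 to 9 for GFP+ sBC against DE. For footprints per RNA they numbered 1 to 3 and 0 to 4 in GFP+ sBC against hPSC, and 0 to 0 and 0 to 6 in DE against hPSC. A lone remaining library is assumed to vary like the other groups. Counts under 10 in hPSC or DE footprints limit the folds of SNAP25, SYT4, SYT5 and SYT7.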
